A study of Arabidopsis with 27 samples.

Results

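The 10 enzymes of glutamate and glutamine metabolism described here were taken by their gene identifiers from the 32824 genes of the deposited expression table. They are the cytosolic glutamine synthetases GLN1;1 (AT5G37600), GLN1;2 (AT1G66200) and GLN1;3 (AT3G17820), the plastid glutamine synthetase GLN2 (AT5G35630), the ferredoxin-dependent glutamate synthase GLU1 (AT5G04140), the NADH-dependent glutamate synthase GLT1 (AT5G53460), the glutamate dehydrogenases GDH1 (AT5G18170) and GDH2 (AT5G07440), and the glutamate decarboxylases GAD1 (AT5G17330) and GAD2 (AT1G65960). All 10 averaged 1 FPKM or more across the libraries, the minimum for testing, which 16577 genes met. Plants assimilate ammonium into glutamine with glutamine synthetase and pass the new nitrogen to glutamate with glutamate synthase, and this cycle also recovers the ammonium that photorespiration releases in leaves. Glutamate dehydrogenase can return glutamate to 2-oxoglutarate and ammonium, and glutamate decarboxylase turns glutamate into GABA.

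The RNA came from rosette leaves of Arabidopsis thaliana that were not themselves treated. Another leaf of the same rosette had received buffer (mock), extracellular ATP (eATP, which the labels give as 300 µM of the analogue βγmeATP) or 100 mM L-glutamate (L-Glu), and the systemic leaf was frozen 30 min later. Each treatment was given to wild-type Col-0, to glr3.3glr3.6, named for a pair of glutamate receptor-like channels, and to p2k1p2k2, named for a pair of lectin receptor kinases that bind extracellular ATP. The labels do not name the alleles of either mutant. The 9 groups held 3 libraries each, and each library came from a pool of 8 plants aged 4 weeks and grown in 10 h of light and 14 h of dark at 21 °C, so the spread is between pools and not between plants. The question put to these genes was whether the transcripts of glutamate's own metabolism moved in the distant leaf.

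FPKM is the number of mapped fragments per length of transcript and per depth of the library, so levels can be compared between genes per unit of length, but it holds no read counts and the depth of each library is unknown. A library is named by its group and the number of its repeat, as in Col-0 mock 1. Summed FPKM per library ran from 740955 to 822758, highest in Col-0 eATP 3. Repeats with the number 1 stood apart from the others: on the leading principal component (24.4% of variance) these 9 libraries scored -12.3 or less, while the other 18 scored 0.981 or more. The labels do not say what a number shares. The genes each mutant is named for were not low in it. GLR3.6 was at 95.9 ± 22.1 FPKM in the libraries labelled glr3.3glr3.6 and 1.06 ± 0.217 in Col-0, and P2K2 was at 16.9 ± 8.76 in those labelled p2k1p2k2 and 0.551 ± 0.201 in Col-0 (SD, n = 9), so each mutant is meant below as its label. Mesophyll markers summed to 33528 to 44110 FPKM per library, and of the 4 root markers RHD6, NRT2.1 and PHT1;1 were listed at 0 in all 27, while SCR was detected in every library, at 3.19 to 5.92 FPKM.

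The 10 transcripts spanned more than 2 orders of magnitude per unit of length. GLN2, the glutamine synthetase of the chloroplast, was highest at 688 ± 105 FPKM (SD over 27 libraries), and its level ran from 518 to 872. GDH2, which encodes a mitochondrial glutamate dehydrogenase subunit, followed at 484 ± 71.0 and was below GLN2 in 26 of 27 libraries. GAD2, the decarboxylase found throughout the plant, came next at 282 ± 14.5, and no library of GDH2 came down to a library of GAD2. GAD2 was also the steadiest of the 10 transcripts, with a coefficient of variation of 5.16%. GDH1, which encodes the other main dehydrogenase subunit, was at 181 ± 29.3 FPKM and GLU1, the main glutamate synthase of leaves, at 156 ± 23.4. These neighbours did not separate: GDH1 was the higher in only 18 of 27 libraries.

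The cytosolic glutamine synthetases lay below the plastid enzyme. GLN1;2 was at 101 ± 17.9 FPKM and GLN1;1 at 77.7 ± 23.8, with GLN1;2 higher in 24 of 27 libraries and their ranges overlapping. GLT1, the synthase that uses NADH, was at 21.5 ± 5.68 and GLN1;3 at 7.73 ± 1.40, and in all 27 libraries GLN1;1 was above GLT1 and GLT1 above GLN1;3. GAD1, known mainly as a root enzyme, was lowest at 2.47 ± 1.24 FPKM and ran from 0.898 to 5.45, a coefficient of variation of 50.2%. The highest GAD1 library overlapped the lowest GLN1;3 library, although GLN1;3 was the higher within each of the 27 libraries. Together the 10 transcripts made up 0.263 ± 0.0134% of summed FPKM. Reads that near-identical members of these families share may have been assigned to either, since the submitters' counting of such reads is not given in the sources used here.

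**Figure D1:**
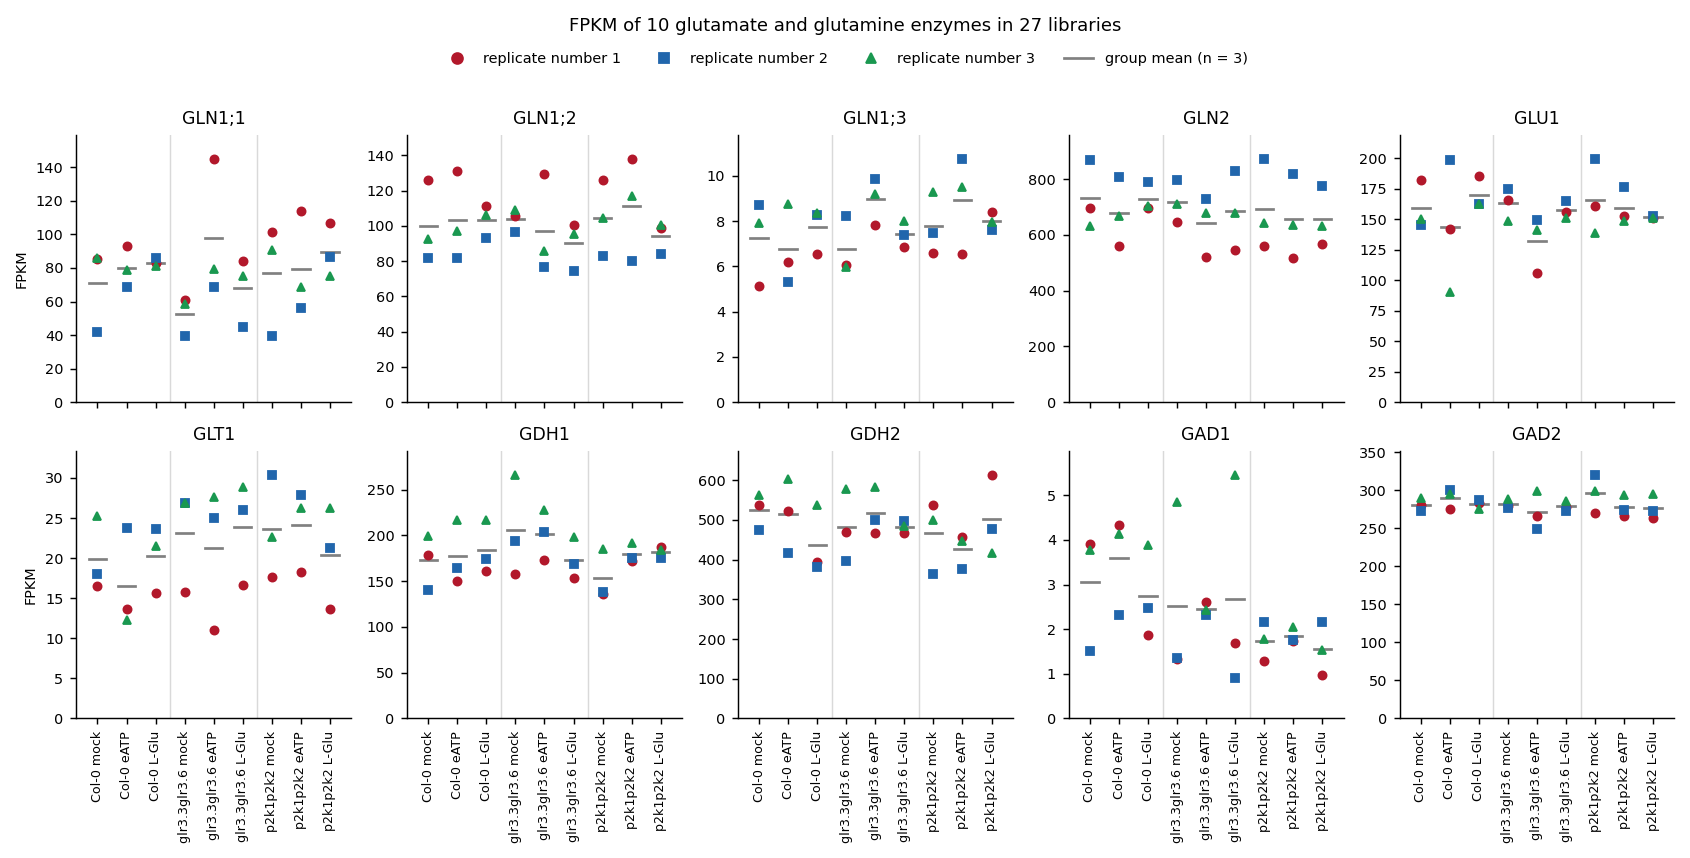
FPKM (y axis, from 0, a separate scale per gene) of the 10 enzymes in each of the 9 groups (x axis), with 1 point per library coloured by replicate number and a grey bar at the group mean (n = 3). The libraries of number 1 (red) are low for GLN2 and GLT1 and those of number 2 (blue) are high for GLN2. The group means are closest to each other for GAD2 and farthest apart for GAD1, relative to their level.

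In wild-type leaves, none of the 10 transcripts passed the test after either treatment. For eATP against mock in Col-0, 0 of 10 were called at an adjusted p under 0.05 (limma, with Benjamini-Hochberg adjustment over 16577 genes), as were 0% of all genes tested, and 0 of 10 had an unadjusted p under 0.05. The libraries of the 2 groups failed to overlap for 0 of 10 members and 4.68% of all genes. For L-Glu against mock in Col-0, 0 of 10 were again called, against 0% of all genes, with 0 at an unadjusted p under 0.05, and 0 of 10 members and 4.46% of all genes did not overlap. In these comparisons 438 and 146 of the 16577 genes had an unadjusted p under 0.05.

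The chloroplast cycle shows how close the Col-0 groups lay. GLN2 read 695, 868 and 633 FPKM in Col-0 mock 1, 2 and 3, 560.0, 807 and 669 after eATP and 696, 790.4 and 704 after L-Glu. The groups overlapped, and in each group number 2 was the highest. The treatment comparisons were fitted without a replicate block, so their SE and intervals include the differences between numbers. The log2 difference from mock, on the scale of log2(FPKM + 1) used throughout, was -0.11 ± 0.20 (SE) after eATP and 0.01 ± 0.20 after L-Glu, with 95% intervals of 0.694 to 1.23 and 0.753 to 1.34 as folds. GLU1, its partner in the chloroplast, read 182, 145 and 150.1 FPKM in mock, 142, 199 and 90.7 after eATP and 185, 163 and 162 after L-Glu. Of the eATP libraries, number 2 was above every mock library and the other 2 below every one. The log2 difference was -0.21 ± 0.19 after eATP and 0.10 ± 0.19 after L-Glu (adjusted p = 1 in both). In Col-0 eATP 3, where GLU1 was at 90.7 FPKM, GLT1 also had its lowest Col-0 value, at 12.3 FPKM.

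Of the enzymes that consume glutamate, GDH2 gave the smallest unadjusted p after L-Glu in Col-0. GDH2 read 537, 474 and 564 FPKM in mock and 394, 381 and 539 after L-Glu. Number 3 of the L-Glu group lay within the mock range and the other 2 below it. The log2 difference was -0.28 ± 0.18, below 0 in all 3 numbers (-0.45, -0.32 and -0.07), with an adjusted p of 1. GAD2 differed from mock by 0.04 ± 0.08 after eATP and 0.00 ± 0.08 after L-Glu, and its 95% intervals of 0.919 to 1.16 and 0.894 to 1.13 as folds were the narrowest of the 10. The intervals of GAD1 reached from 0.669 to 2.00 after eATP and from 0.543 to 1.62 after L-Glu. All these folds are of FPKM + 1, which draws the folds of a low gene such as GAD1 toward 1. The intervals are not adjusted for the number of genes, so GAD1 changes of that size, and larger ones, could have gone uncalled.

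**Figure D2:**
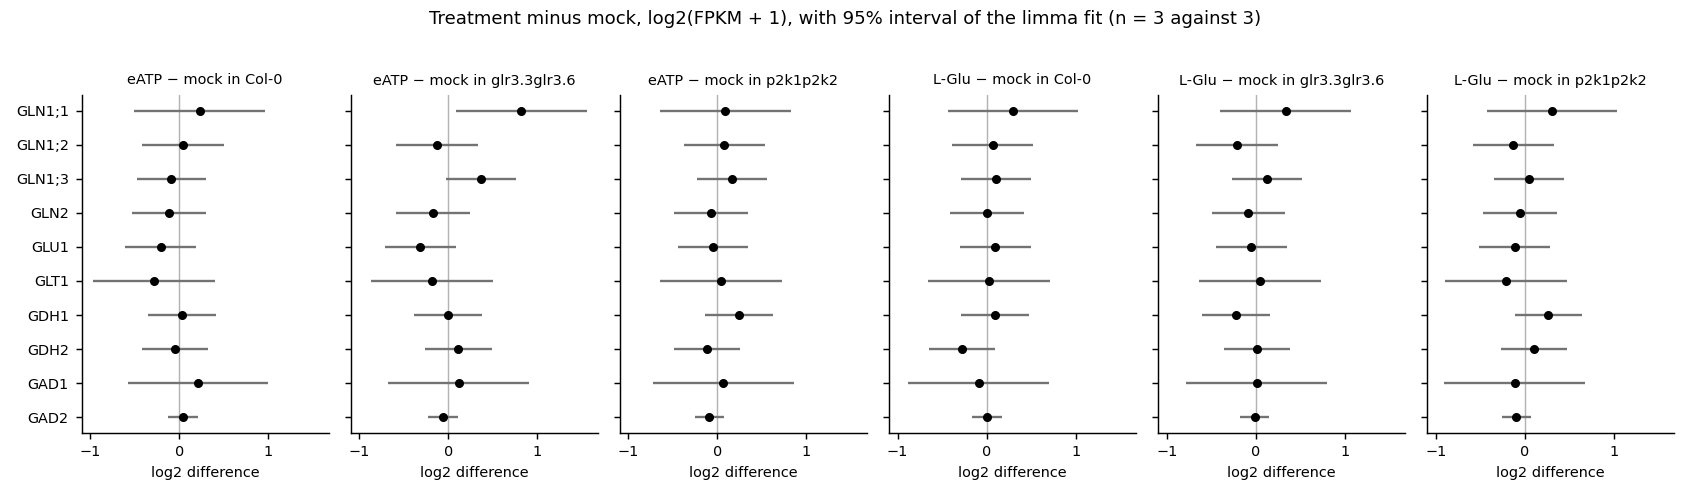
Log2 difference from mock (x axis, log2(FPKM + 1) scale) for each of the 10 enzymes (y axis) after eATP and after L-Glu in the 3 genotypes, with points for the limma estimate and bars for its 95% interval (n = 3 against 3). Of the 60 intervals, only that of GLN1;1 after eATP in glr3.3glr3.6 lies clear of 0, before adjustment for the number of genes.

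In the libraries labelled glr3.3glr3.6, the cytosolic glutamine synthetase GLN1;1 was the 1 member whose eATP and mock libraries did not overlap. GLN1;1 read 60.8, 39.5 and 58.3 FPKM in mock 1, 2 and 3 and 145, 68.5 and 79.3 after eATP. The lowest eATP library was above the highest mock library, and eATP 1 stood well above the others. No overlap in either direction was found for 1 of 10 members and for 6.78% of all genes tested. The log2 difference was 0.82 ± 0.35, or 1.24, 0.78 and 0.44 within numbers 1, 2 and 3, and its adjusted p was 1 (unadjusted p = 0.0307, limma). With 0 of 10 members and 0% of all genes called, this does not pass the test, and 1 of 10 members and 561 genes had an unadjusted p under 0.05. The summed FPKM of the 4 defence markers, all of them detected, ran from 45.0 to 238 in the same mock libraries and from 64.2 to 966 in the eATP libraries, and their part in the result was not tested. GLN1;1 differed from mock after eATP by 0.23 ± 0.35 in Col-0 and 0.09 ± 0.35 in p2k1p2k2, and the difference between its eATP response in glr3.3glr3.6 and in Col-0 was 0.59 ± 0.50 (adjusted p = 1).

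The remaining members of glr3.3glr3.6 overlapped between eATP and mock. GLN1;3 read 6.05, 8.23 and 5.97 FPKM in mock and 7.84, 9.86 and 9.19 after eATP, a log2 difference of 0.37 ± 0.19 that was above 0 in all 3 numbers. GLU1 read 166, 175 and 148 in mock and 106, 149 and 141 after eATP, a log2 difference of -0.32 ± 0.19 that was below 0 in all 3. Neither passed the test (adjusted p = 1). For L-Glu against mock in this line 0 of 10 members and 0% of all genes were called, with 0 members at an unadjusted p under 0.05 and log2 differences from -0.22 (GDH1) to 0.33 (GLN1;1). GDH1 read 157, 194 and 266 FPKM in mock and 153, 168 and 198 after L-Glu, where mock 3 was the highest library of both groups. In this comparison 0 of 10 members and 5.53% of all genes did not overlap.

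In p2k1p2k2 none of the 10 transcripts passed the test either. For eATP against mock 0 of 10 and 0% of all genes were called, and for L-Glu against mock 0 of 10 and 0%, with 0 members at an unadjusted p under 0.05 in either. None of the 10 was free of overlap, against 5.94% of all genes for eATP and 5.69% for L-Glu. GDH1 had the highest log2 difference after eATP at 0.24 ± 0.18, from 136, 138 and 185 FPKM in mock to 172, 176 and 191 after eATP, and after L-Glu it read 187, 175 and 184, a difference of 0.26 ± 0.18. Mock 3 lay within the range of both treated groups. These differences share the same mock libraries. GLN1;1 differed by 0.31 ± 0.35 after L-Glu, where its number 2 libraries moved by 1.11 and its number 3 libraries by -0.27.

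The agents were also set against each other within each genotype, and 0 of 10 members were called in Col-0, glr3.3glr3.6 or p2k1p2k2, against 0%, 0% and 0% of all genes. GLU1 was the 1 member with no overlap, in glr3.3glr3.6, where its eATP libraries at 132 ± 23.0 FPKM all lay below its L-Glu libraries at 157 ± 7.06 (SD, n = 3). The highest eATP library, at 149, was just under the lowest L-Glu library, at 151. The log2 difference was -0.27 ± 0.19 (adjusted p = 1), and 4.33% of all genes showed no overlap in that comparison, against 8.32% in Col-0 and 5.32% in p2k1p2k2, where 0 of 10 members did. Averaged over the 3 genotypes, 0 of 10 members were called for eATP against mock and 0 of 10 for L-Glu against mock, as were 0% and 0% of all genes. GLN1;1 had the highest average difference under both agents, at 0.38 ± 0.20 for eATP and 0.31 ± 0.20 for L-Glu, again against shared mock libraries. None of the 4 differences in response between a mutant and Col-0 was called for any member (0 of 10 in each, against 0% of all genes), and their log2 values ran from 0.59 for GLN1;1 down to -0.31 for GDH1, after eATP and after L-Glu in glr3.3glr3.6.

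No member passed the test between genotypes, which was fitted without a replicate block. In mock leaves 0 of 10 members were called between glr3.3glr3.6 and Col-0, against 0.0483% of all genes, and 0 of 10 between p2k1p2k2 and Col-0, against 0.0362%. Without overlap were 0 of 10 in both, against 5.16% and 5.53% of all genes. Over the 3 treatments, 0 of 10 were called for glr3.3glr3.6 (0.151% of all genes) and 0 of 10 for p2k1p2k2 (0.109%), and 0 of 10 were without overlap in either (0.0784% and 0.0905% of all genes). The nearest to a call was GAD1, the minor decarboxylase, in p2k1p2k2. Its lowest, median and highest values were 1.51, 3.77 and 4.35 FPKM in the 9 Col-0 libraries, 0.982, 1.75 and 2.17 in the 9 libraries of p2k1p2k2 and 0.898, 2.31 and 5.45 in those of glr3.3glr3.6. The p2k1p2k2 libraries were the tightest and lay at the bottom of the Col-0 range, which they overlapped. Between p2k1p2k2 and Col-0 the log2 difference was -0.57 ± 0.22, with an adjusted p of 0.263 (unadjusted p = 0.0164, limma). It was -0.87, -0.03 and -0.82 within numbers 1, 2 and 3, that is close to 0 in number 2. At levels as low as these, the 1 FPKM added before the logarithm draws log2 differences toward 0. All other members had an unadjusted p above 0.05 in both lines over the 3 treatments.

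The differences that passed the test were between replicate numbers, which every group shares. Against the mean of numbers 2 and 3, with 9 groups behind each contrast and each group as its own level, 6 of 10 members were called for number 1 (2 higher and 4 lower), when 53.2% of all genes tested were called (18.5% higher and 34.7% lower). After median-of-ratios scaling 4094 genes were called higher and 3765 lower, in place of 3074 and 5745, and the members stayed at 2 and 4. The members' share is near that of all genes, and 0 of 10 were without overlap, against 1.71% of all genes. Between numbers 2 and 3, 6 of 10 were called (1 higher and 5 lower in number 2) against 26.4% of all genes (12.8% higher and 13.6% lower). In bulk leaf RNA, fewer cells of a type and less RNA per cell cannot be told apart.

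Among the glutamine synthetases, the plastid and the main cytosolic transcripts ran opposite ways. The lowest, median and highest GLN2 values were 518, 560.0 and 696 FPKM for number 1, 729, 807 and 872 in number 2 and 633, 669 and 711 in number 3. Number 2 lay wholly above both others, a separation that 2.74% of all genes showed between numbers 2 and 3. GLN2 was lower in number 1 by a log2 difference of -0.32 ± 0.04 (adjusted p = 8.59e-06), below 0 in 9 of 9 groups, and higher in number 2 than in number 3 (log2 difference 0.28 ± 0.05, adjusted p = 0.000419), above 0 in 9 of 9.

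GLN1;2, a cytosolic enzyme that detoxifies ammonium, had lowest, median and highest values of 98.6, 126 and 138 FPKM for number 1, 74.3, 82.0 and 96.6 in number 2 and 85.6, 100.3 and 117 in number 3. Every library of number 1 was above every library of number 2, a separation that was not counted over all genes. Number 3 lay between and overlapped both. GLN1;2 was higher in number 1 (log2 difference 0.36 ± 0.06, adjusted p = 3.78e-05, 9 of 9 groups) and lower in number 2 than in number 3 (log2 difference -0.27 ± 0.07, adjusted p = 0.00512, 9 of 9 groups). GLN1;1, a cytosolic isoenzyme, ranged from a lowest value over a median to a highest of 60.8, 92.98 and 145 FPKM for number 1, 39.5, 56.1 and 86.6 for number 2 and 58.3, 78.5 and 90.8 for number 3. Its order was the same as that of GLN1;2 but its libraries overlapped between all numbers. It was higher in number 1 (log2 difference 0.52 ± 0.11, adjusted p = 0.000646, 8 of 9 groups) and lower in number 2 than in 3 (log2 difference -0.43 ± 0.13, adjusted p = 0.0165, 7 of 9 groups). GLN1;3 did not follow them. It was lower in number 1, at 6.68 ± 0.970 FPKM, than in numbers 2 and 3, at 8.18 ± 1.55 and 8.33 ± 1.07 (SD, n = 9) (log2 difference -0.26 ± 0.08, adjusted p = 0.00632, 8 of 9 groups).

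The balance of plastid and cytosolic transcripts also differed between numbers. GLN2 made up 72.5 ± 4.77% of the summed FPKM of the 4 glutamine synthetases in number 1, 84.3 ± 2.36% in number 2 and 78.1 ± 1.47% in number 3 (SD, n = 9). The shares of number 2 began at 80.9%, above the 78.9% and 80.4% at which the other numbers ended. The summed cytosolic level was 222 ± 33.7, 151 ± 21.0 and 186 ± 10.5 FPKM in the same order. By treatment the GLN2 share was 79.7 ± 5.56% in mock, 76.4 ± 7.36% after eATP and 78.7 ± 4.17% after L-Glu, with overlapping ranges.

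Of the glutamate synthases, GLT1 passed the test in number 1. Its lowest, median and highest values were 11.05, 15.8 and 18.2 FPKM for number 1, 18.1, 25.1 and 30.4 in number 2 and 12.3, 26.2 and 28.9 in number 3. Number 1 lay below the medians of both others, the lowest library of number 2 reached just into it and 1 library of number 3 (Col-0 eATP 3) lay within it. GLT1 was lower in number 1 (log2 difference -0.62 ± 0.10, adjusted p = 2.8e-05, 9 of 9 groups), the largest number 1 difference among the 10, and numbers 2 and 3 differed by 0.05 ± 0.11 (adjusted p = 0.766). GLU1 was at 156 ± 23.5 FPKM for number 1, 169 ± 19.9 in number 2 and 142 ± 20.5 in number 3. It did not differ beyond its spread in number 1 (0.00 ± 0.08, 95% interval 0.886 to 1.13 as a fold), and its difference between numbers 2 and 3, 0.26 ± 0.10, missed the threshold at an adjusted p of 0.0567, and passed it (adjusted p from 0.0296 to 0.0413) without Col-0 mock 2, Col-0 L-Glu 2, glr3.3glr3.6 eATP 1 or glr3.3glr3.6 eATP 3. GLT1's share of the summed FPKM of both synthases was 9.07 ± 0.928% in number 1, 12.8 ± 1.24% in number 2 and 14.4 ± 1.62% in number 3.

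**Figure D3:**
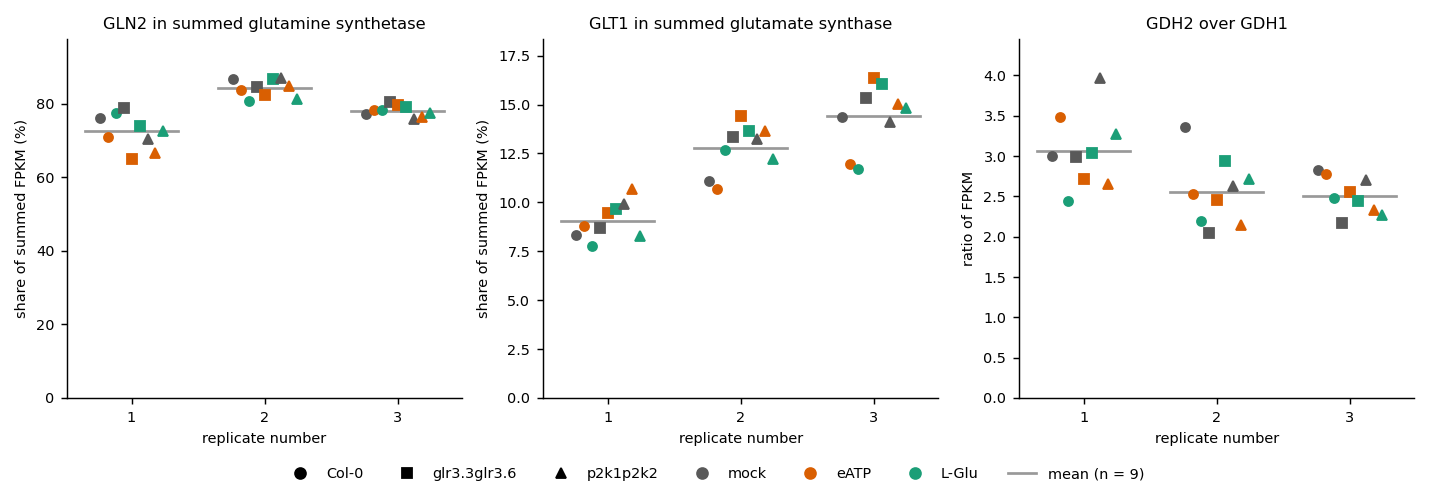
GLN2 as a percentage of the summed FPKM of the 4 glutamine synthetases (left), GLT1 as a percentage of the summed FPKM of both glutamate synthases (middle) and the ratio of GDH2 to GDH1 (right), by replicate number (x axis). Each point is a library, with shape for genotype and colour for treatment, and the grey bar is the mean of 9 libraries. The GLN2 share is highest in number 2 and the GLT1 share lowest in number 1, with genotypes and treatments intermixed.

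The enzymes that break glutamate down differed mainly between numbers 2 and 3. GDH1 had lowest, median and highest values of 136, 161 and 187 FPKM for number 1, 138, 174 and 204 in number 2 and 184, 199.6 and 266 in number 3. Number 3 had the highest median. It overlapped number 1 only at its lower end, while number 2 reached past its median. GDH1 was lower in number 1 (log2 difference -0.21 ± 0.06, adjusted p = 0.00371, 7 of 9 groups) and lower in number 2 than in number 3 (log2 difference -0.30 ± 0.06, adjusted p = 0.00192, 9 of 9 groups). GDH2 was at 496 ± 63.3, 431 ± 55.2 and 524 ± 65.2 FPKM, lower in number 2 than in number 3 (log2 difference -0.28 ± 0.08, adjusted p = 0.0154, 7 of 9 groups), while in number 1 it differed by 0.06 ± 0.07 (adjusted p = 0.483). The ratio of GDH2 to GDH1 was 3.06 ± 0.465, 2.56 ± 0.422 and 2.51 ± 0.229 in numbers 1, 2 and 3.

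GAD1 had lowest, median and highest values of 0.982, 1.74 and 4.35 FPKM for number 1, 0.898, 2.16 and 2.49 in number 2 and 1.54, 3.77 and 5.45 in number 3, with overlap between all. It was called lower in number 2 than in number 3 (log2 difference -0.54 ± 0.19, adjusted p = 0.0392, 7 of 9 groups), but this call was lost, at adjusted p from 0.0547 to 0.0964, when Col-0 mock 2, Col-0 mock 3, Col-0 eATP 2, Col-0 L-Glu 3, glr3.3glr3.6 mock 2, glr3.3glr3.6 mock 3, glr3.3glr3.6 L-Glu 2 or glr3.3glr3.6 L-Glu 3 was left out. GAD2 differed by -0.06 ± 0.03 in number 1 and by -0.06 ± 0.04 between numbers 2 and 3, neither past the test (adjusted p = 0.119 and 0.280).

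**Figure D4:**
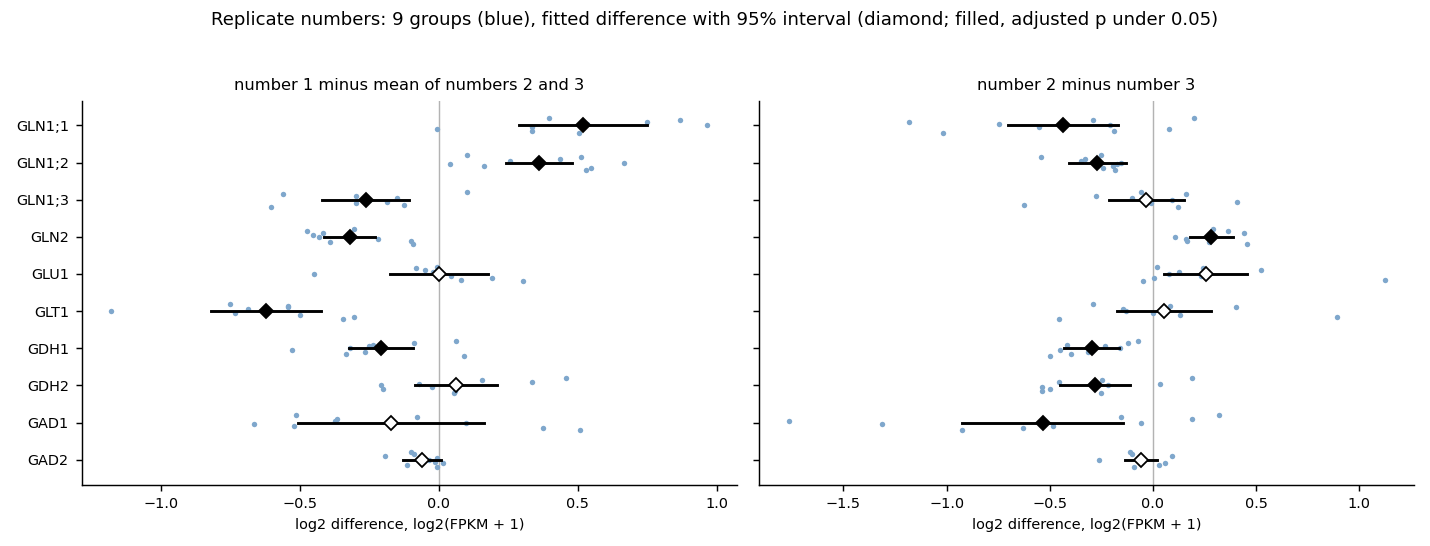
Log2 difference (x axis, log2(FPKM + 1) scale) of number 1 from the mean of numbers 2 and 3 (left) and of number 2 from number 3 (right) for the 10 enzymes (y axis). Blue points are the 9 groups, diamonds the limma estimate with its 95% interval, filled where the adjusted p is under 0.05. GLN2 and GLT1 are below 0 in number 1 in 9 of 9 groups and GLN1;2 above 0 in 9 of 9.

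A sign shared by all 9 groups was seen in 27.3% of all genes for number 1 and in 12.8% for number 2 against 3. On the log2 scale, replicate number accounted for 76.1% of the variance of GLN2, 68.4% of that of GLN1;2 and 57.4% of that of GLT1, against a median of 31.4% over all genes tested. The 9 groups accounted for 9.96% of the variance of GLN2 and at most 30.2% of that of any member (GLN1;3), against a median of 25.7%. Group takes 8 degrees of freedom and number 2, so group shares are the larger where neither has an effect. Number accounted for 49.5% in GDH1, 45.9% in GLN1;1 and 31.6% in GDH2. The shares for number of GLN1;3 (29.0%), GAD2 (25.9%), GAD1 (24.3%) and GLU1 (20.5%, the lowest of the 10) were under the 31.4% median.

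Markers of defence and senescence moved with the numbers too. All 4 defence markers were higher in number 1, and their summed FPKM ran from 64.9 to 1126 in number 1, 45.0 to 376 in number 2 and 64.2 to 238 in number 3. PR1, a salicylate-induced defence gene, had means of 60.2, 14.2 and 1.46 FPKM. Between numbers 2 and 3 it was the 1 defence marker of 4 called, higher in number 2. That call was lost (adjusted p from 0.0529 to 0.101) on leaving out number 2 or 3 of the eATP or L-Glu groups of Col-0 or glr3.3glr3.6, or p2k1p2k2 mock 3, eATP 3, L-Glu 2 or L-Glu 3. Of 6 senescence markers, 5 were tested. Against the mean of numbers 2 and 3, 4 were higher in number 1, and 4 of 5 were lower in number 2 than in number 3. Their summed FPKM was 537 to 1152, 209.9 to 376 and 491 to 835 in the same order. SEN4 made up most of it, with a mean of 551 of 602 FPKM. SEN4 (750, 269 and 633), SAG13 (24.3, 3.40 and 4.93) and NYE1 (15.0, 9.31 and 10.9) had their highest mean in number 1. NAP (28.0, 13.3 and 35.9) and ORE1 (2.86, 1.06 and 4.51) had theirs in number 3. SAG12, the defining senescence protease, was listed at 0 in all 27 libraries. The 5 phloem and vasculature markers, of which 4 were tested, summed to 116 to 146, 137 to 158 and 124 to 165. SUC2, the companion-cell sucrose transporter, was at 80.5 ± 2.97, 95.8 ± 4.91 and 86.5 ± 8.02 FPKM. APL (6.64, 8.02 and 6.72 FPKM) and IRX3 also had their highest mean in number 2. SWEET11 (31.3, 30.3 and 39.1) and SWEET12 (10.8, 10.3 and 14.6) went the other way, lowest in number 2 and highest in number 3. The 5 mesophyll markers summed to 33528 to 38468, 36682 to 42860.5 and 36812 to 44110.1, with RBCS1A at 8622 ± 663, 10306 ± 668 and 8605 ± 565. LHCB2.1 also had its highest mean in number 2 (2630, 2770 and 2613 FPKM). RCA (3676, 3424 and 3417) and CA1 (1551, 1467 and 1446) were highest in number 1, and LHCB1.3 (19928, 21740 and 22805) in number 3. The part of these markers in the enzymes' differences was not tested.

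The wider network around glutamate was read through 41 further genes for nitrate reduction, ammonium transport, asparagine and aspartate, the GABA shunt, photorespiration, proline, glutathione and chlorophyll precursors, of which 37 were tested. The minor isoforms GLN1;5, GDH3, GAD3 and GAD5 were below the minimum, at mean levels of at most 0.345 FPKM (GDH3). The 19 comparisons covered eATP and L-Glu against mock, eATP against L-Glu, the genotypes and the differences between responses. In each of them 0 of 37 were called (limma without a replicate block). From 0 to 6 of the 37 had an unadjusted p under 0.05, most in p2k1p2k2 over 3 treatments. The smallest p after eATP and after L-Glu in glr3.3glr3.6 belonged to GAD4, a further decarboxylase, which was at 3.95 ± 2.19 FPKM in mock, 10.99 ± 2.77 after eATP and 11.2 ± 5.64 after L-Glu (SD, n = 3). Its log2 differences were 1.33 ± 0.40 and 1.28 ± 0.40 (adjusted p = 1), with no overlap of either treated group with the mock they share. In these comparisons 6.78% of all genes for eATP and 5.53% for L-Glu did not overlap. GAD4 sits beside the near-identical GAD3, so reads may have been split between them. HEMA1, an early enzyme on the route from glutamate to chlorophyll, was second in both, at 0.24 ± 0.09 and 0.20 ± 0.09.

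In Col-0 the smallest p values after eATP belonged to P5CDH, which returns proline carbon to glutamate (-0.23 ± 0.12), and GLU2, a second ferredoxin-dependent glutamate synthase (-0.23 ± 0.13), and after L-Glu to HEMA1 (0.11 ± 0.09) and the alanine aminotransferase ALAAT2 (0.43 ± 0.35). In p2k1p2k2 they belonged after eATP to the aspartate aminotransferase ASP5 (0.15 ± 0.08) and GLU2 (0.20 ± 0.13), and after L-Glu to the proline dehydrogenase ProDH1 (0.49 ± 0.23) and the ammonium transporter AMT1;1 (0.47 ± 0.28). All had an adjusted p of 1. For eATP against L-Glu, P5CDH had the smallest p in Col-0 (-0.36 ± 0.12, adjusted p = 0.825), followed by GLU2 (-0.35 ± 0.13), in glr3.3glr3.6 P5CDH (0.25 ± 0.12) and ProDH1 (0.41 ± 0.23) led, and in p2k1p2k2 ProDH1 (-0.49 ± 0.23) and HEMA1 (-0.12 ± 0.09). P5CDH had opposite signs in Col-0 and glr3.3glr3.6, and that difference was not tested for eATP against L-Glu. Averaged over the genotypes, GAD4 and HEMA1 had the smallest p under both agents, at 0.44 ± 0.23 and 0.08 ± 0.05 for eATP and 0.58 ± 0.23 and 0.14 ± 0.05 for L-Glu.

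Between genotypes in mock leaves, the smallest p belonged to HEMA1 (-0.19 ± 0.09) and ASP5 (-0.13 ± 0.08) in glr3.3glr3.6 and to ProDH1 (-0.56 ± 0.23) and GAD4 (0.94 ± 0.40) in p2k1p2k2. Over the 3 treatments GAD4 was at 4.55 ± 1.02 FPKM in Col-0, 8.70 ± 4.88 in glr3.3glr3.6 and 9.14 ± 4.32 in p2k1p2k2 (SD, n = 9), log2 differences from Col-0 of 0.64 ± 0.23 and 0.77 ± 0.23 with adjusted p of 0.542 and 0.171. GGAT1, the main photorespiratory aminotransferase, was next in glr3.3glr3.6 (-0.10 ± 0.06) and ALDH5F1, the succinic semialdehyde dehydrogenase that ends the GABA shunt, next in p2k1p2k2 (-0.22 ± 0.07, adjusted p = 0.209). These values are from the fit without a replicate block, and those of GAD4 and ALDH5F1 with a block are given in the last section. For the differences in response between a mutant and Col-0, the smallest p belonged to ASP5 and P5CDH (eATP in glr3.3glr3.6, 0.30 ± 0.12 and 0.40 ± 0.16), to GSH1, which starts glutathione synthesis, and GAD4 (L-Glu in glr3.3glr3.6, 0.20 ± 0.11 and 0.99 ± 0.57), to GLU2 and ASP5 (eATP in p2k1p2k2, 0.43 ± 0.18 and 0.28 ± 0.12) and to ProDH1 and AMT1;1 (L-Glu in p2k1p2k2, 0.74 ± 0.32 and 0.52 ± 0.39), all with an adjusted p of 1.

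By replicate number, 21 of the 37 genes were called in number 1 (10 higher and 11 lower, or 14 higher and 9 lower after median-of-ratios scaling) and 20 of 37 between numbers 2 and 3 (11 higher and 9 lower in number 2), when 53.2% and 26.4% of all genes tested were called. The share in number 1 is near that of all genes. NIA1 had the largest log2 difference of the 37 in both comparisons. NIA1, a nitrate reductase, had lowest, median and highest values of 3.91, 8.41 and 20.02 FPKM for number 1, 58.8, 94.6 and 146 for number 2 and 8.29, 20.5 and 98.3 in number 3. Number 2 lay above all of number 1, a separation not counted over all genes, while number 3 overlapped both. NIA1 was lower in number 1 (log2 difference -2.40 ± 0.31, adjusted p = 4.6e-06) and higher in number 2 than in 3 (log2 difference 1.99 ± 0.36, adjusted p = 0.000432). The nitrite reductase NIR1 (-0.79 ± 0.18 and 0.97 ± 0.21) and the asparagine synthetase ASN2 (-0.69 ± 0.13 and 1.06 ± 0.15) had the same signs, and NIA2, the major nitrate reductase, was higher in number 2 than in 3 (0.95 ± 0.23).

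The dark-inducible asparagine synthetase ASN1 went the other way from ASN2. ASN1 was at 964 ± 109.6, 659 ± 119 and 1015 ± 85.0 FPKM in numbers 1, 2 and 3 (SD, n = 9), and its number 2 libraries all lay below those of number 3 (-0.64 ± 0.08, adjusted p = 2.22e-05). No overlap between these 2 numbers, in either direction, was found for 2.74% of all genes. P5CS1, the rate-limiting enzyme from glutamate to proline, was higher in number 1, at 71.7 ± 13.6 FPKM, than in numbers 2 and 3, at 29.6 ± 4.97 and 42.9 ± 6.40 (0.98 ± 0.10, adjusted p = 2.31e-07), and lower in number 2 than in 3 (-0.53 ± 0.11). The photorespiratory aminotransferase GGAT2 (0.80 ± 0.07), GAD4 (0.62 ± 0.14), ALAAT2 (0.43 ± 0.11) and AT5G38710 (0.85 ± 0.19) were also higher in number 1. ALAAT2 (-0.52 ± 0.13) and the ammonium transporter AMT1;2 (-0.51 ± 0.08) were lower in number 2 than in number 3.

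**Figure D5:**
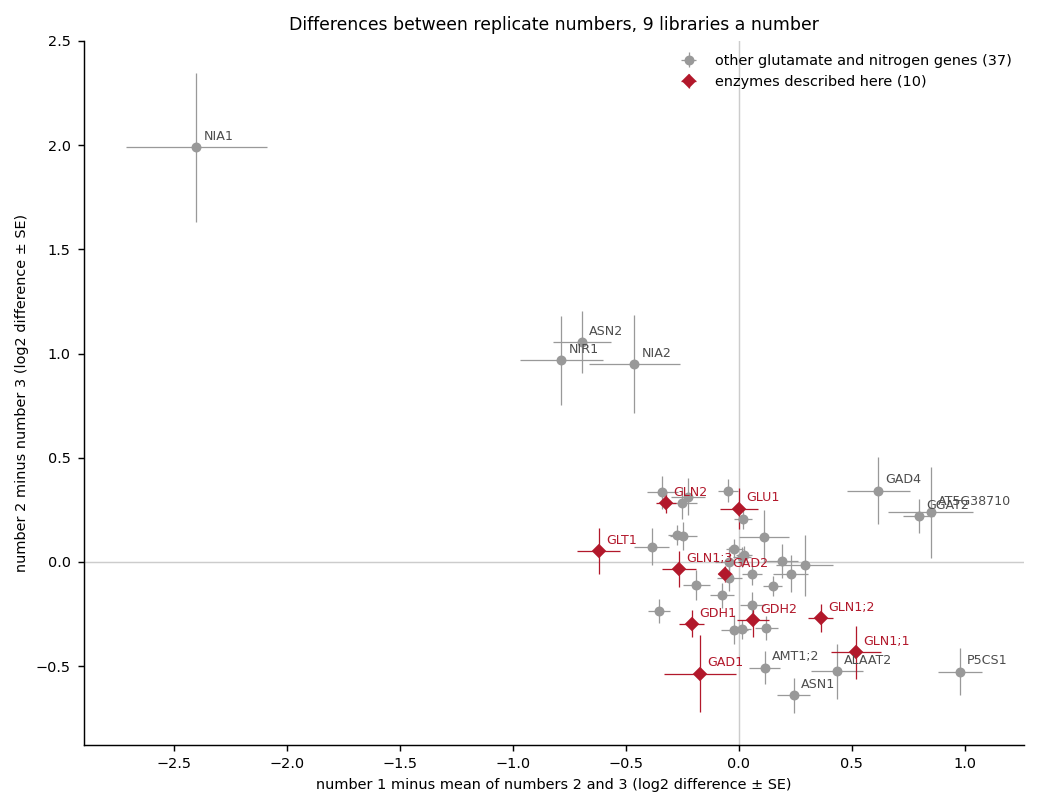
Log2 difference of number 1 from the mean of numbers 2 and 3 (x axis) against that of number 2 from number 3 (y axis), each ± SE, for the 10 enzymes (red) and 37 other genes of glutamate and nitrogen metabolism (grey), from 9 libraries a number. NIA1, NIR1, NIA2 and ASN2 lie at the upper left with GLN2, and P5CS1, ALAAT2, GLN1;1 and GLN1;2 at the lower right. The axes share the libraries of numbers 2 and 3.

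How far members moved together was described within each number, over 9 libraries that differ in group, because the numbers form separate sets. GLU1 and GLT1 had Pearson's r of 0.76, 0.67 and 0.88 in numbers 1, 2 and 3 (Spearman's rho 0.43, 0.75 and 0.28), and 0.44, 0.81 and 0.54 without the 2 libraries farthest from the median of GLU1, so part of the relation in numbers 1 and 3 rests on those libraries. GLN1;1 and GLN2 had r of -0.69, -0.67 and -0.43 (rho -0.70, -0.63 and -0.17), and -0.69, -0.68 and 0.26 without 2 libraries, so the opposite movement did not hold in number 3. GLN1;2 and GLN2, opposite between numbers, had r of -0.26, -0.06 and 0.01 within them (rho -0.48, -0.22 and 0.17). GDH1 and GDH2 had r of 0.17, 0.21 and 0.73 (rho 0.10, 0.32 and 0.87). These values are descriptions, and the libraries of a number share whatever the number stands for.

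The genes whose log2 levels were most like each member over the 27 libraries were taken by Pearson's r, as a description that replicate number enters. GLN2 was closest to the tubulin gene TUA3 (r = 0.95), iPGAM1 (0.93) and CIL (0.91), and GLN1;1 to WRKY53 (0.90), EP1 (0.89) and Hsp70-2 (0.88). GLN1;2 was closest to ALDH11A3 (0.90), AT3G30390 (0.90) and ALP (0.90), and GLN1;3 to AT5G19290 (0.76), RAC6 (0.76) and AT5G64670 (0.75). GLU1 was closest to SCAR4, CESA6 and GSL8 (0.90 each). GLT1 was closest to TTN1 (0.93), AGO1 (0.92) and AT4G27640 (0.92). GDH1 was closest to AT1G21400 (0.88), AKINBETA1 (0.86) and DIN4 (0.85), and GDH2 to AT1G71430 (0.76), SEN1 (0.73) and AAE5 (0.73). The decarboxylases had the weakest likenesses, GAD1 to AT3G60910 (0.75), UMAMIT41 (0.70) and AT1G75770 (0.70), and GAD2 to PTR1 (0.71), KIN1 (0.66) and OEP16-1 (0.65). After the means of group and number were removed, 27 of these 30 correlations were lower. They then ran from 0.89 to 0.91 for GLU1, 0.84 to 0.86 for GLT1, 0.66 to 0.91 for GLN1;1, 0.70 to 0.88 for GLN1;2, 0.63 to 0.82 for GLN2 and 0.59 to 0.76 for GDH2. For GDH1 they ran from 0.52 to 0.71, for GAD1 from 0.57 to 0.70, for GLN1;3 from 0.49 to 0.65 and for GAD2 from 0.53 to 0.56. The 30 correlations were picked for a high r in the same libraries, which alone favours lower values afterwards. The count of 27 therefore does not measure the part of group or number.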

How the data were processed

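RNA was sequenced from 27 systemic leaf samples. The deposited values are FPKM per gene, and the submitters' processing notes name Cufflinks 2.2.1 and Cuffdiff 2.2.1, the aligner HISAT2 2.2.1 with SAMtools 1.19, read trimming by Trim Galore 0.6.7, quality control by FastQC 0.11.9 and the build TAIR10, as tools of the authors with neither order nor settings. Further scaling between libraries is not stated. FPKM holds no read counts, so depth is unknown and no counting interval was computed. In the RefSeq gene table (TAIR10.1), all 10 members and 32539 of the 32824 identifiers were found. Coordinates and sequences were not used here.

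Groups and replicate numbers came from the sample titles. Values were analysed as log2(FPKM + 1), a pseudocount of 1, for genes averaging 1 FPKM or more. In limma 3.58.1 (R 4.3.3), each group had its own mean in a joint fit of the 27 libraries (eBayes with trend, 18 residual and 3.09 prior degrees of freedom). Replicate numbers were compared in a model of group and number (16 residual degrees of freedom). Tests were two-sided, with Benjamini-Hochberg adjustment over the 16577 genes of each of 21 comparisons, and calls needed an adjusted p under 0.05. In the treatment and genotype comparisons, each p measures the spread between pooled repeats. The main fit of these had no replicate block, so that spread includes the differences between replicate numbers, also where the numbers paired the samples. Between replicate numbers, each p measures the spread of the differences over the 9 groups, and not a spread between repeated sets of a number. The fit was tested on simulated data.

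The members, the 41 further genes and the markers were chosen with earlier results of these data known. All 10 members are named. Of the 41 genes, those called are named, the 8 with the largest log2 difference where more than 8 were, and the 2 with the smallest p where none was. The 3 genes most like each member are named.

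Alternatives were no filter, a higher filter (mean of 5 FPKM), a pseudocount of 0.1, quantile normalization, median-of-ratios scaling, library weights, a replicate block across all groups or within genotype, a fit of only those libraries under comparison, and dropping 1 library at a time. Pairing by number was checked from correlations of libraries' deviations from their group means. The numbers paired the samples (every pair's r over 0.1) in 9 of 19 comparisons, a hint from the data and not from the labels. The correlation ran from 0.0369 to 0.66.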

Additional observations from a re-analysis of the deposited data

Results flagged for a closer look

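In 90 sets of 9 libraries (each gene within each genotype, treatment and replicate number), 9 values stood apart from the rest of their set by Dixon's criterion at 95%, and chance gives about 1 in 20, or 4.5. The sets overlap, since each library belongs to 3 of them.

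For GLN1;1, Col-0 mock 2 at 41.9 FPKM was low among the Col-0 libraries, where the next was 68.7. GLN1;1 in glr3.3glr3.6 eATP 1 at 145 FPKM was high among the libraries of that line, where the next was 84.4, and in glr3.3glr3.6 L-Glu 2 at 44.6 it was low among the L-Glu libraries, where the next was 75.3. GLN1;3 in glr3.3glr3.6 mock 3 at 5.97 FPKM was low in number 3, where the next was 7.93.

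GLU1 in Col-0 eATP 3 at 90.7 FPKM was low in number 3, where the next was 138, and GLT1 in the same library at 12.3 FPKM was low in number 3, where the next was 21.5. GLU1 in glr3.3glr3.6 eATP 1 at 106 FPKM was low among the libraries of that line, where the next was 141, and in Col-0 L-Glu 1 at 185 FPKM it was high among the L-Glu libraries, where the next was 165. GDH1 in glr3.3glr3.6 mock 3 at 266 FPKM was high among the mock libraries, where the next was 199.6.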

How the results depend on the processing

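Over the settings tried, members' log2 differences changed sign in 57 of 1691 values of the 19 treatment and genotype comparisons. When a library was left out they did so in 257 of 1860. No member was called in the main fit of these comparisons. Each stayed uncalled in 1690 of the 1691 values, and in 1860 of 1860 when a library was left out. The exception was GAD1 in p2k1p2k2 against Col-0 over 3 treatments, which was called (log2 -0.57, adjusted p = 0.0403) with a replicate block within genotype, making 1 of 10 members called there. With the block across all groups 0 of 10 were called and the adjusted p of GAD1 was 0.067. By the rule that every pair's r exceed 0.1, the replicate numbers did not pair the samples of that comparison (lowest r 0.0369). All its correlations were above 0, up to 0.66. The block changed no other member's call, the 9 paired comparisons included. Genes called in all rose from 25 to 381 (block across groups) and 394 (within genotype) for glr3.3glr3.6 over 3 treatments, and from 18 to 1098 and 1156 for p2k1p2k2, where library weights gave 157, median-of-ratios scaling 31, only the libraries compared 10, a minimum mean of 5 FPKM 11, and leaving out Col-0 mock 3 gave 101. In mock leaves they moved within genotype from 8 to 13 for glr3.3glr3.6 and from 6 to 10 for p2k1p2k2 (0 with only the libraries compared, 3 at a minimum mean of 5 FPKM, 2 to 5 leaving out 1 library). For treatments against mock they reached 33 from 0 (L-Glu in glr3.3glr3.6, library weights) and 8 from 0 (eATP in glr3.3glr3.6, block within genotype), and elsewhere at most 3. Among the other pathway genes the block called GAD4 in both lines (adjusted p = 0.0393 and 0.00866 across groups, 0.0309 and 0.00758 within genotype) and ALDH5F1 in p2k1p2k2 (0.039 and 0.0397), and within genotype also ASN2 in glr3.3glr3.6 (0.0483) and NIA2 in p2k1p2k2 (0.0474).

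Members called between replicate numbers stayed at 6 in number 1 under all settings and libraries left out, and ran from 5 to 7 (libraries left out) and 5 to 6 (other settings) between numbers 2 and 3. GAD1 lost that call without the filter (adjusted p = 0.0661) and with library weights (0.062), and was not tested at a minimum mean of 5 FPKM. GLU1 gained it with library weights (0.0449) and without Col-0 mock 2, Col-0 L-Glu 2, glr3.3glr3.6 eATP 1 or glr3.3glr3.6 eATP 3 (0.0296 to 0.0413). Median-of-ratios scaling moved the genes called in number 1 from 3074 higher and 5745 lower to 4094 higher and 3765 lower, and the members stayed at 2 and 4. RBCS1A in number 1 changed sign under quantile normalization, from -0.13 to 0.034, and PR1 lost its call between numbers 2 and 3 without the filter (adjusted p = 0.0777) and without each of 12 single libraries (0.0529 to 0.101). The cause of these changes was not tested. With library depth unknown, a low level such as that of GAD1 has no detection limit here.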
